A study of Saccharomyces cerevisiae with 24 samples.

Results

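The aminoacyl-tRNA synthetases of budding yeast, with the synthetase cofactor *ARC1*, make up 37 of the 6427 genes in the expression tables. They were chosen by name from a list of members and were placed in 2 sets by where their products work. The cytosolic set held 23 genes, among them *ARC1*, the second glycyl-tRNA synthetase gene *GRS2* and 6 genes known to supply both the cytosol and the mitochondrion (*ALA1*, *GRS1*, *GUS1*, *HTS1*, *VAS1* and *YNL247W*). The mitochondrial set held 14 genes. All 37 passed the filter on low values at every time point, so no member is missing from any count below.

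The cells were haploid BY4741 (*MATa his3Δ1 leu2Δ0 met15Δ0 ura3Δ0*), a relative of the reference strain S288C, and the labels give the same strain for every group. Each of 3 cultures grown in rich medium (YEPD) was washed into buffered saline and divided into a control portion that stayed on ice and a laser portion that was spread over several tubes, irradiated with an ultraviolet laser for 30 s and pooled again. Both were returned to fresh, warm medium, and RNA was taken at 0, 15, 30 and 60 min (T0, T15, T30 and T60), which gives 24 libraries in 8 groups of 3. Since only the laser portion went through the irradiation tubes, the effect of light and the effect of this handling cannot be told apart.

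These enzymes join each amino acid to its tRNA and so feed the ribosome. Yeast runs a pair of translation systems, and for most amino acids a separate nuclear gene encodes the enzyme that is imported into the mitochondrion to charge the tRNAs used for the few proteins made there. Transcripts for cytosolic translation are known to follow growth, and some synthetase genes are known targets of Gcn4, an activator that responds to amino acid shortage. Many transcripts for mitochondrial translation are known to be bound after their stop codon by Puf3, a protein that recognises a short run of letters.

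That run was searched for in the genome. Since Puf3 is known to bind many such transcripts, a high share among the mitochondrial genes is no independent finding. Other genes of mitochondrial translation were not set beside them. The letters TGTANATA, where N is any base, were looked for on the gene's own strand in the 150 bases after the stop codon, a search added once the fits were known. All 14 mitochondrial genes held them, against 3 of 23 cytosolic genes (13%) and 754 of 6008 reading frames of the nuclear genome (12.5%). The form TGTAAATA was present after 12 of the 14 mitochondrial genes (85.7%) and after none of the 23 cytosolic genes, against 4.01% of all reading frames. *ISM1* and *AIM10* held only TGTATATA, the form found after the cytosolic genes *GLN4*, *GUS1* and *YNL247W*. A match describes the letters and does not show that the protein binds there. The stretches below are from the RefSeq R64 genome, 5′ to 3′ on the gene's strand, with the matched letters in capitals. They show the mitochondrial genes with the 3 highest laser effects at T15 or at T30, *ISM1*, which had the lowest at T15, and a cytosolic match. *MSM1*, which had the lowest mitochondrial laser effect at T30 (0.02), is not shown and held TGTAAATA.
*MSK1*, chrXIV:490131-490160, plus strand: gccaatgctttTGTAAATAaatcagacata
*MSF1*, chrXVI:658979-659008, plus strand: TGTATATAtctTGTAAATActttgtcaggt
*MSR1*, chrVIII:284758-284787, minus strand: atttataaacaTGTAAATAgaagaaagttt
*MSW1*, chrIV:1005165-1005194, plus strand: tgcaaacgcaaTGTAAATAataatacagtt
*MSD1*, chrXVI:357730-357759, plus strand: taggtttttctTGTAAATAttatacctatt
*ISM1*, chrXVI:475957-475986, minus strand: tgtacctttccTGTATATAaagaatgccaa
*GUS1*, chrVII:41154-41183, plus strand: cacataagtaaTGTATATAcatatttatgt
The distance from the stop codon to the match was short in *ISM1*, at 18 bases, and in *MSK1*, at 26 bases, and longer in *MSR1*, at 63 bases, and *MSD1*, at 65 bases. *MSK1* (26 and 48 bases), *MSF1* (41 and 52 bases) and *NAM2* (33 and 119 bases) each held 2 matches.

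On the other side of the genes, the Gcn4 letters TGACTC were found on either strand within 400 bases before the start codon of 11 of 23 cytosolic genes (47.8%), against 2 of 14 mitochondrial genes (14.3%) and 10.3% of all reading frames. *DED81* and *YHR020W*, which are neighbours that point away from each other, share a single match in the region between them. The following stretches are shown because they lie before the most abundant synthetase transcript and before 2 genes that serve other amino acids, again from R64 with the match in capitals.
*KRS1*, chrIV:525295-525324, plus strand: gaatgatgaaaTGACTCttaatgaacttcg
*THS1*, chrIX:212284-212313, plus strand: tactgtttaaaTGACTCttaccttgtgata
*ALA1*, chrXV:949138-949167, minus strand: attaaggaactTGACTCtttctttcaagaa
Other motifs were searched in the same window and on both strands. The PAC letters GATGAG were found before 6 cytosolic genes and 1 mitochondrial gene (23.5% of all reading frames), the stress element AGGGG before 3 and 5 (28.9%), the Yap1 letters TTACTAA before 1 and 3 (9.7%), and the proteasome element GGTGGCA before none of the 37 (3.5%). No motif searched contains another.

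Expression was given as RPKM, the reads of a gene scaled to its length and to the size of the library, which allows levels to be compared between genes. Library depth, recovered from the steps of low RPKM values, was 2579000 to 5383500 reads, so that a value rested on 44 to 6523 reads for a cytosolic gene and on 20 to 417 for a mitochondrial gene. The genotype was met in part. The receptor gene *STE2* of *MATa* cells was at 202 RPKM or more in all 24 libraries, and *LEU2* and *URA3* were at the floor of 0.021 RPKM in all 24. *HIS3*, of which the *his3Δ1* allele is known to lack only a part, was read at 106 to 168 RPKM. *MET17*, the gene also called *MET15* and listed as deleted, was read at 31.2 to 482 RPKM in every library, which goes against the *met15Δ0* label in all groups alike. The level of a transcript is its share of the library, and in such bulk samples fewer cells with a transcript and less of it per cell cannot be told apart.

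The cytosolic enzymes were far more abundant than the mitochondrial ones. The median RPKM over 24 libraries ran from 17.1 for *GRS2* to 598 for *KRS1*, the lysyl enzyme, in the cytosolic set, with a set median of 231. It ran from 9.28 for *ISM1*, the mitochondrial isoleucyl enzyme, to 25 for *MSK1*, the mitochondrial lysyl enzyme, with a set median of 18.1. The median over all genes was 33.3, above all 14 mitochondrial genes and below 22 of the 23 cytosolic genes. *KRS1* was followed by *ARC1* (490), a cofactor that holds the methionyl and glutamyl enzymes, *SES1* (351), *DED81* (341), *DPS1* (318) and *GRS1* (295), the seryl, asparaginyl, aspartyl and main glycyl enzymes, whose ranges over the libraries overlapped. *CDC60*, the leucyl enzyme, was the lowest of the other cytosolic genes at 107. *GRS2* alone lay among the mitochondrial genes. It and *GRS1* share no run longer than 17 bases in their coding sequences, so that paired 75-base reads of these paralogs can be placed.

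At T0, directly after the return to medium, the sets did not part. No member passed an adjusted p of 0.05 in either direction by limma on log2(RPKM + 1), with Benjamini-Hochberg adjustment over 5884 genes, and none had an unadjusted p under 0.05. Of all genes tested, 0.017% were called higher and 0% lower. The median log2 fold change of laser over control was 0.03 for cytosolic and -0.05 for mitochondrial genes.

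At T15 the mitochondrial enzymes were higher in laser cells than in control cells. All 14 had a positive log2 fold change, from 0.26 to 1.08 with a median of 0.76, where the median of all genes tested was 0.29. By limma, 7 of the 14 were called higher at an adjusted p under 0.05, which was reached by 22.6% of all genes. With the replicate number as a block 11 were called (41.2% of all genes). In 8 of the 14 every laser library lay above every control library, against 34.2% of all genes. The cytosolic enzymes stood on the other side, with 21 of 23 log2 fold changes below 0 and a median of -0.20. None was called lower (4.26% of all genes were), and 11 were called lower with the block (12.5% of all genes). An unadjusted p under 0.05 for a lower value was reached by 2 of the 23, and by 502 of all 5887 genes tested. *GRS2* was the only cytosolic gene called higher.

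**Figure D1:**
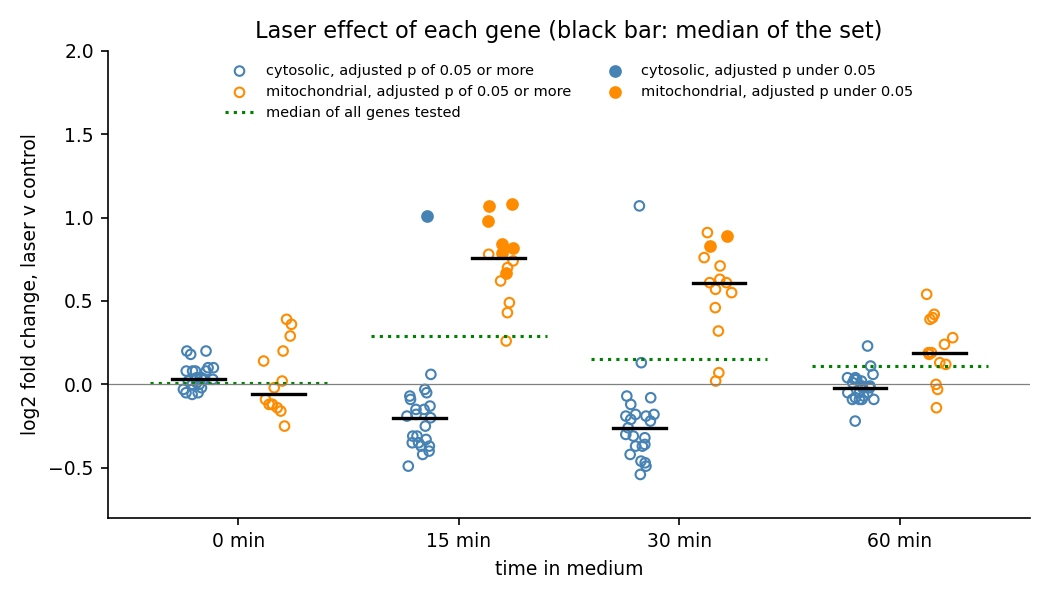
Log2 fold change of laser over control cells (y axis) for each of the 23 cytosolic and 14 mitochondrial genes at 4 times in medium (x axis), with filled points at an adjusted p under 0.05, black bars at set medians and dotted lines at the median of all genes tested. At 15 min the set medians are -0.20 and 0.76, and the filled cytosolic point is *GRS2*.

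*MSK1* (chrXIV:488386-490116, R64), the mitochondrial lysyl enzyme, stood at 19.2, 17.4 and 24.4 RPKM in the control libraries of T15 and at 42.3, 37.3 and 51.5 RPKM in the laser libraries. The groups did not overlap, since each laser library was above each control library. The means were 20.3 ± 3.61 and 43.7 ± 7.2 RPKM (SD, n = 3), a log2 fold change of 1.07 ± 0.23 (SE, limma, adjusted p = 0.00575). *MSF1* (chrXVI:657529-658938), the mitochondrial phenylalanyl enzyme, stood at 7.5, 9.09 and 10.9 RPKM in control libraries and at 19.3, 15.1 and 28.3 RPKM in laser libraries. Its groups were also apart, with a wider spread among the laser libraries, and the log2 fold change was 1.08 ± 0.29 (SE, limma, adjusted p = 0.0204). These 2 genes were the mitochondrial members that passed a 2-fold threshold, as 12.3% of all genes did.

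*MSR1* (chrVIII:284839-286770), the mitochondrial arginyl enzyme, was near that threshold, with 17.8, 14.1 and 26.8 RPKM in control libraries and 36.8, 33.6 and 45.7 RPKM in laser libraries. Control replicate 3 was the highest of the control libraries and still below every laser library, and the log2 fold change was 0.98 (limma, adjusted p = 0.0184). The other mitochondrial genes called were *MSY1* (0.84), *MST1* (0.82), *MSW1* (0.79) and *MSD1* (0.67), for tyrosine, threonine, tryptophan and aspartate. The 7 not called were *DIA4* (0.78), *NAM2* (0.74), *SLM5* (0.70), *MSE1* (0.62), *MSM1* (0.49), *AIM10* (0.43) and *ISM1* (0.26), with adjusted p-values by limma from 0.0577 for *NAM2*, the leucyl enzyme that also helps splice mitochondrial introns, to 0.588 for *ISM1*. With the block 4 of these 7 were called, *NAM2* (adjusted p = 0.0108 by limma), *SLM5* (0.0168), *MSE1* (0.0424) and *DIA4* (0.046).

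*GRS2* (chrXVI:702114-703970), a glycyl enzyme gene known for its low expression in unstressed cells, stood at 13.2, 7.59 and 15.7 RPKM in control libraries and at 21.8, 25.5 and 26.4 RPKM in laser libraries of T15. Its groups did not overlap and the log2 fold change was 1.01 ± 0.29 (SE, limma, adjusted p = 0.0242). Its paralog *GRS1* (chrII:481364-483367), which provides the glycyl enzyme of growing cells, stood at 319, 275 and 392 RPKM in control libraries and at 253, 224 and 315 RPKM in laser libraries. These groups overlapped, with a log2 fold change of -0.31 (limma, adjusted p = 0.27, and 0.0164 with the block). The paralogs therefore had laser effects of opposite sign, a difference that was not tested.

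*SES1* (chrIV:489508-490896), the seryl enzyme, had the most negative laser effect of the family at T15, from 390, 358 and 464 RPKM in control libraries to 290, 240 and 331 RPKM in laser libraries. Each laser library was below each control library, as in 3 of 23 cytosolic genes and 9.22% of all genes, and the log2 fold change was -0.49 (limma, adjusted p = 0.0765, and 0.00303 with the block). *YDR341C* (chrIV:1151803-1153626), the arginyl enzyme, stood at 218, 180 and 250 RPKM in control libraries and at 151, 146 and 183 RPKM in laser libraries. Its highest laser library was just above its lowest control library, and the log2 fold change was -0.42 (limma, adjusted p = 0.113, and 0.00728 with the block). *GLN4* (chrXV:649303-651732), the glutaminyl enzyme, stood at 168, 156 and 216 RPKM in control libraries and at 139, 117 and 151 RPKM in laser libraries, with a log2 fold change of -0.40 (limma, adjusted p = 0.137, and 0.01 with the block). Its groups did not overlap. *GUS1*, the glutamyl enzyme, was the only other cytosolic gene with a positive value, 0.06, at 220, 175 and 249 against 219, 187 and 264 RPKM, which overlapped almost fully. *ARC1* (chrVII:307437-308567) stood at 518, 486 and 608 RPKM in control libraries and at 511, 487 and 529 RPKM in laser libraries, also with full overlap and a log2 fold change of -0.07.

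The number of members called at T15 depended on single libraries and on the scale. It was 8 in all (26.9% of all genes were called in either direction), 23 with the block, and 1 without control replicate 1, 1 without control replicate 2, 13 without control replicate 3, 3 without laser replicate 1, 3 without laser replicate 2 and 5 without laser replicate 3. *MSK1* was called in each of these. The share of all genes is not given for fits with a library left out, so those counts show only dependence on single libraries. Rescaling the libraries to a common median ratio moved the median of all genes from 0.29 to -0.02 and the set medians to 0.45 for mitochondrial and -0.53 for cytosolic genes. The calls then became 5 mitochondrial genes and *GRS2* higher (14.8% of all genes) and 16 cytosolic genes lower (13.2%), and *ISM1* and *GUS1* changed sign. The distance between the set medians hardly moved, since both sets are read from the same libraries. It was -0.96 (cytosolic minus mitochondrial) and stayed between -1.03 and -0.89 when any 1 library was left out.

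The same distance can be read inside each library, where it depends on the library's scale only through the 1 added to RPKM. The median log2(RPKM + 1) of the cytosolic genes exceeded that of the mitochondrial genes by 2.92 ± 0.25 in control cells and by 3.03 ± 0.16 in laser cells at T0 (SD, n = 3), with overlapping libraries. At T15 it was 3.92 ± 0.08 in control cells (3.83 to 3.98) and 3.11 ± 0.15 in laser cells (2.95 to 3.24). The difference stood at 4.33 ± 0.06 and 3.47 ± 0.12 at T30 and at 4.13 ± 0.11 and 3.81 ± 0.09 at T60. Control and laser libraries did not overlap at T15, T30 or T60, and the laser libraries of T60 (3.71 to 3.86) overlapped with the control libraries of T15. The median of all genes by the same measure was also higher in laser cells at T15, at 5.46 against 5.09 in control cells. The mitochondrial medians there were 4.62 and 3.95, and the cytosolic medians 7.73 and 7.87. Other genes of similar abundance were not set beside the 2 sets.

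**Figure D2:**
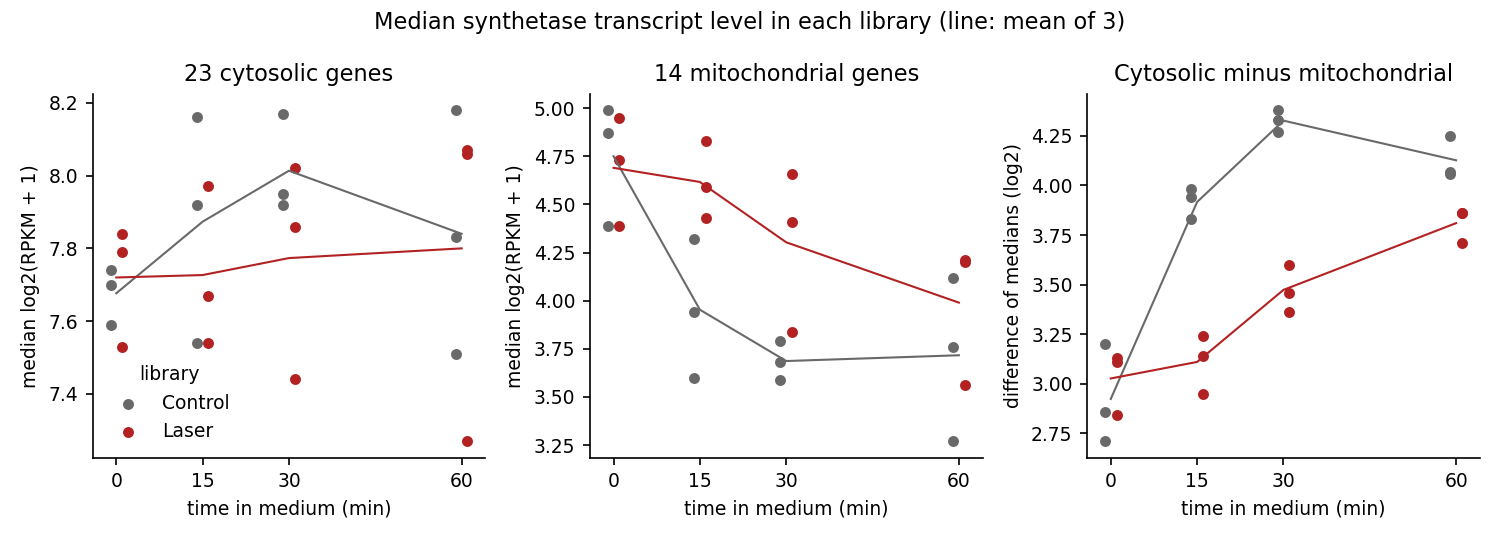
Median log2(RPKM + 1) of the 23 cytosolic genes, of the 14 mitochondrial genes and their difference (y axes) in each of 24 libraries against time in medium (x axes), with lines through the means of 3 libraries. In the right panel the control libraries lie at 3.83 to 3.98 and the laser libraries at 2.95 to 3.24 at 15 min.

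The gap can also be set beside the changes over time within each treatment. In control cells all 14 mitochondrial genes were below 0 from T0 to T15, their median being -0.82 on the log2 scale where that of all genes was -0.33. In the limma fit of 24 libraries 8 of the 14 fell, as 24.6% of all genes did. *MSK1* went from 34.4, 59.7 and 57.7 RPKM at T0 to 19.2, 17.4 and 24.4 RPKM at T15, which is a log2 fold change of -1.25 (adjusted p = 0.00117 by limma). *DIA4*, the mitochondrial seryl enzyme, also fell by 1.25 on the log2 scale (limma, adjusted p = 0.00894), and *MSF1* fell by 1.12 (limma, adjusted p = 0.0245). *MSY1*, *NAM2*, *MST1*, *MSD1* and *AIM10* were the other mitochondrial genes that fell. The cytosolic genes had a median of 0.34 over the same 15 min. *YHR020W* (0.69), *CDC60* (0.67) and *YDR341C* (0.61), the prolyl, leucyl and arginyl enzymes, rose (4.93% of all genes did). *GRS2* again stood with the mitochondrial genes, at -0.91 (limma, adjusted p = 0.0554, and 0.0048 with the block).

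In laser cells the set medians of the same interval were nearer to 0, as was the median of all genes, at -0.04. The median log2 fold change from T0 to T15 was -0.09 for mitochondrial and 0.08 for cytosolic genes. No member was called in the limma fit, where 5.4% of all genes were called higher and 6.74% lower. None had an unadjusted p under 0.05, and *ISM1* alone was called with the block (23.2% of all genes). *MSK1* stood at 48.3, 56.7 and 58.1 RPKM at T0 and at 42.3, 37.3 and 51.5 RPKM at T15, with overlapping groups. *MSR1* had the most positive value of the family, 0.55, from 18.6, 33.4 and 27.8 RPKM to 36.8, 33.6 and 45.7 RPKM. The difference between these changes was tested as the laser effect at T15 minus that at T0, a contrast added once the fits were known. Its median was 0.79 for mitochondrial and -0.24 for cytosolic genes (0.28 for all genes). No member passed (4.6% of all genes were called higher and 0.293% lower). An unadjusted p under 0.05 for a higher value was reached by 4 mitochondrial genes, and by 1050 of all 6146 genes. *SES1* reached it for a lower value, as did 148 of all 6146 genes. With the block *MSR1* (1.0, adjusted p = 0.0284 by limma), *MSK1* (0.93, adjusted p = 0.0135), *MST1*, *NAM2* and *MSD1* passed as higher and *SES1* (-0.57, adjusted p = 0.0201) as lower, where 16.2% of all genes passed as higher and 2.83% as lower. Without replicate 1 in any group 2 members passed, for which the share of all genes is not given. After rescaling 10 cytosolic genes passed as lower (176 of 6146 genes did) and no mitochondrial gene passed. This contrast, the changes over time and the laser effect share libraries, so their values for a gene are not independent of each other.

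**Figure D3:**
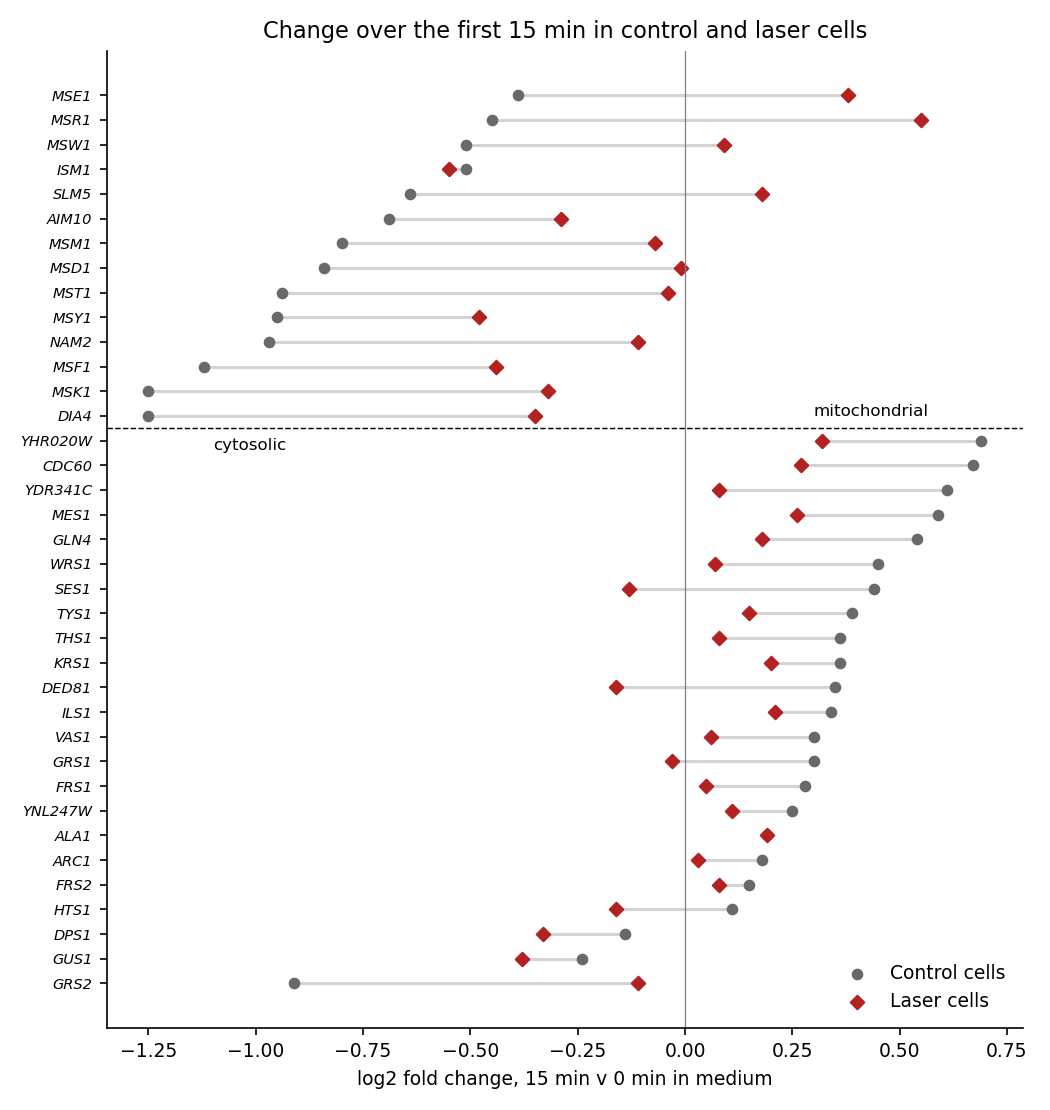
Log2 fold change from 0 to 15 min in medium (x axis) for each gene (y axis) in control cells (circles) and laser cells (diamonds), with cytosolic genes below and mitochondrial genes above the dashed line. *MSK1* lies at -1.25 in control cells and at -0.32 in laser cells, and *GRS2* lies apart from the other cytosolic genes in control cells.

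Against T0 and without rescaling, more mitochondrial genes were called lower at T30 and T60 than at T15 in both control and laser cells. After rescaling 7, 8 and 7 were lower at T15, T30 and T60 in control cells (986, 1428 and 1399 of all 6146 genes). In laser cells 0, 4 and 6 were then lower (615, 1015 and 1424 of all 6146 genes). Without rescaling, the mitochondrial median from T0 to T30 was -1.01 in control cells (-0.38 for all genes), with 9 genes lower (34.3% of all genes). In laser cells it was -0.45 (-0.20 for all genes), with *MSF1*, *MSK1*, *MST1* and *MSY1* lower (18.7% of all genes). From T0 to T60 the mitochondrial median in control cells was -0.96 (-0.44 for all genes), with 11 lower (37.3% of all genes). In laser cells it was -0.73 (-0.33 for all genes), with 7 lower (32% of all genes). *MSF1* had the lowest value in laser cells at T60, at -1.77 (limma, adjusted p = 0.000592), and *MST1*, the threonyl enzyme, the lowest in control cells at T30, at -1.67 (limma, adjusted p = 0.000301). Among cytosolic genes 7 rose by T30 in control cells (8.15% of all genes), led by *CDC60* (0.82), *YDR341C* (0.81) and *MES1* (0.79), the leucyl, arginyl and methionyl enzymes, and none rose in laser cells by T30 (7.7% of all genes, and none at an unadjusted p under 0.05). By T60 *YHR020W* (0.63 in control and 0.66 in laser cells) had risen in both, and *YDR341C* (0.64) in control cells (6.92% of all genes rose in control cells and 9.13% in laser cells). *GRS2* fell by T30 in control cells, by 1.11, and by T60 in both, by 0.99 and 0.96 on the log2 scale.

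These counts moved with the block, the scale and replicate 2. With the block 21, 28 and 22 members were called in control cells at T15, T30 and T60, against 11, 17 and 14 without it, where the block called 47.2%, 55.6% and 56.6% of all genes. In laser cells they were 1, 7 and 17 against 0, 4 and 9, where the block called 23.2%, 43.9% and 54.5% of all genes. Without replicate 2 they were 0, 2 and 2 in control cells and, at T30 and T60, 0 and 2 in laser cells. Without replicate 3 they were 4, 8 and 9 in control cells. No share of all genes is given for the fits without a replicate. After rescaling, which put the median of all genes near 0, 20 cytosolic genes were higher (13.9% of all genes) and 7 mitochondrial genes lower (16%) in control cells at T15, and the mitochondrial medians there were -0.50, -0.62 and -0.51 at the 3 later times. On that scale 12 cytosolic genes were higher in laser cells at T30 (15.9% of all genes), where none was before, and 19 at T60 (22%), against 21 in control cells at T30 (20.9%). *MSW1* (chrIV:1004004-1005143) shows how close to the all-gene shift some members lay, since its fall of 0.53 at T60 in control cells became -0.06.

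At T30 the set medians of the laser effect kept their signs, with fewer calls, while *GUS1* (-0.22) and *ARC1* changed sign from T15. All 14 mitochondrial genes had positive log2 fold changes, from 0.02 to 0.91 with a median of 0.61 (0.15 for all genes), and 2 were called higher by limma (14.4% of all genes), or 4 with the block (24% of all genes). *MSK1* stood at 13.9, 15.5 and 16.1 RPKM in control libraries and at 22.1, 30.2 and 35.8 RPKM in laser libraries. The groups did not overlap, and the log2 fold change was 0.89 (limma, adjusted p = 0.041). *MSW1*, the mitochondrial tryptophanyl enzyme, stood at 12.5, 15.6 and 15.8 RPKM in control libraries and at 22.4, 29.1 and 29.4 RPKM in laser libraries, a log2 fold change of 0.83 (limma, adjusted p = 0.0453). Its groups were likewise apart. *MSD1* (chrXVI:355700-357676), the mitochondrial aspartyl enzyme, had the highest mitochondrial value, 0.91 (limma, adjusted p = 0.052, and 0.0064 with the block), from 11.2, 10.7 and 15.8 RPKM to 20.6, 21.5 and 31.7 RPKM, again without overlap. Every laser library was above every control library in 5 of the 14, against 24.4% of all genes.

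The cytosolic median at T30 was -0.26, with 21 of 23 genes below 0. None was called in either direction (2.15% of all genes were called lower). An unadjusted p under 0.05 was reached by 3 for a lower value (305 of all 5871 genes). For a higher value 1 reached it (1369 of all 5871 genes). *YDR341C* stood at 240, 234 and 268 RPKM in control libraries and at 123, 188 and 210 RPKM in laser libraries. All laser libraries were below all control libraries, as in 4 of 23 cytosolic genes and 7.29% of all genes, and the log2 fold change was -0.54 (limma, adjusted p = 0.123, and 0.00925 with the block). *SES1* (-0.49), *TYS1* (-0.47), the tyrosyl enzyme, and *MES1* (-0.46) also passed as lower with the block (5.91% of all genes). *TYS1* stood at 322, 316 and 367 RPKM in control libraries and at 194, 259 and 279 RPKM in laser libraries, and *SES1* at 404, 409 and 517 RPKM against 264, 312 and 375 RPKM, both without overlap. *GRS2* stood at 8.27, 11.3 and 10.9 RPKM in control libraries and at 12.2, 29.7 and 29.6 RPKM in laser libraries, where replicate 1 was near the control level, and its log2 fold change was 1.07 (limma, adjusted p = 0.0697, and 0.00307 with the block). *ARC1* (0.13), at 454, 500 and 564 against 465, 564 and 635 RPKM, and *GRS1* (-0.31), at 314, 307 and 389 against 199, 287 and 344 RPKM, overlapped between the groups.

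Laser replicate 1 of T30 was the lowest of its group in all 37 members, as it was in 70.5% of all genes. Without it 11 members were called at T30, 10 of them mitochondrial, in place of 2. Without laser replicate 3 there were 4, all cytosolic, and without laser replicate 2 or any 1 of the control replicates there were 0. The shares of all genes called in these fits are not given, so the counts do not set the members apart from other genes. Rescaling gave 18, with 4 mitochondrial genes and *GRS2* higher (13.7% of all genes) and 13 cytosolic genes lower (8.12%), and turned *ISM1*, *MSM1* and *ARC1* negative.

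**Figure D4:**
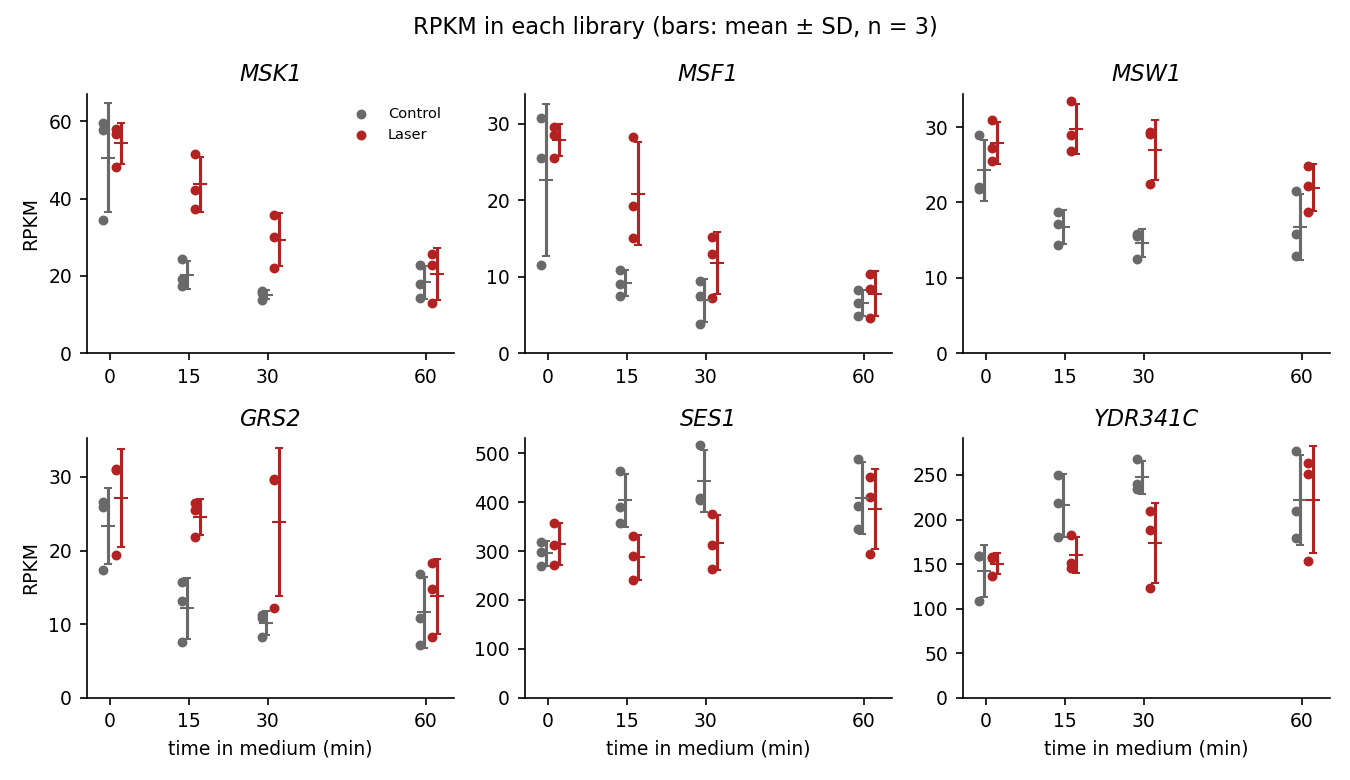
RPKM (y axes, from 0) of 6 genes in each library against time in medium (x axes), in control cells (grey) and laser cells (red), with bars at the mean ± SD of 3 libraries. *MSK1*, *MSF1* and *MSW1* are higher in all laser than in all control libraries at 15 min, as is *GRS2*, and *SES1* is lower.

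At T60 no member was called by limma (0.187% of all genes were called higher and 0.051% lower), and none had an unadjusted p under 0.05 or was called under leave-one-out. The medians were 0.19 for mitochondrial and -0.02 for cytosolic genes (0.11 for all genes). *MSK1* stood at 14.2, 17.9 and 22.9 RPKM in control libraries and at 13, 25.7 and 22.9 RPKM in laser libraries, so that the groups now overlapped. *SES1* stood at 345, 392 and 488 against 294, 410 and 452 RPKM, which also overlapped. Laser replicate 1 was again the lowest of its group in all 37 members (70.1% of all genes). No member passed the test of a change in laser effect from T15 to T30 (0.195% of all genes higher and 0.342% lower). None had an unadjusted p under 0.05 there. From T30 to T60 no member passed either (0.26% and 2.51%). In this interval 2 mitochondrial genes had an unadjusted p under 0.05 for a lower value, as did 602 of all 6146 genes. The medians of this change were -0.35 for mitochondrial and 0.25 for cytosolic genes (-0.08 for all genes).

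Genes that serve the same amino acid in the 2 compartments can be set against each other, which was possible for 14 amino acids. The mitochondrial gene had the higher log2 fold change of laser over control in 14 of 14 pairs at T15 and in 14 of 14 at T30. At T15 no paired cytosolic gene exceeded 0.06 and no mitochondrial gene lay below 0.26. At T30 these bounds were -0.07 and 0.02. Any pairing of these genes would give the same counts, so the match by amino acid adds nothing to them. For lysine the ratio of *KRS1* to *MSK1* RPKM rose in control cells from 11.2 at T0 to 35.1 at T15 and 48.4 at T30, and in laser cells from 10.2 to 14.7 and 22.0. For serine the ratio of *SES1* to *DIA4* went from 14.6 at T0 to 55.1 at T30 in control cells and from 16.9 to 24.7 in laser cells. For isoleucine, *ILS1* over *ISM1*, the control and laser ratios at T15 were closest, at 25.3 and 18.9. For arginine, *YDR341C* over *MSR1*, the ratio went from 5.35 to 11.3 in control cells but from 5.82 to 4.15 in laser cells, and it was lower than at T0 in laser cells for tryptophan (6.37 to 6.28), aspartate (13.4 to 10.7), glutamate (17.4 to 10.1) and asparagine (20.9 to 16.4) as well. These are group values without a test, and the pairs share their libraries.

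**Figure D5:**
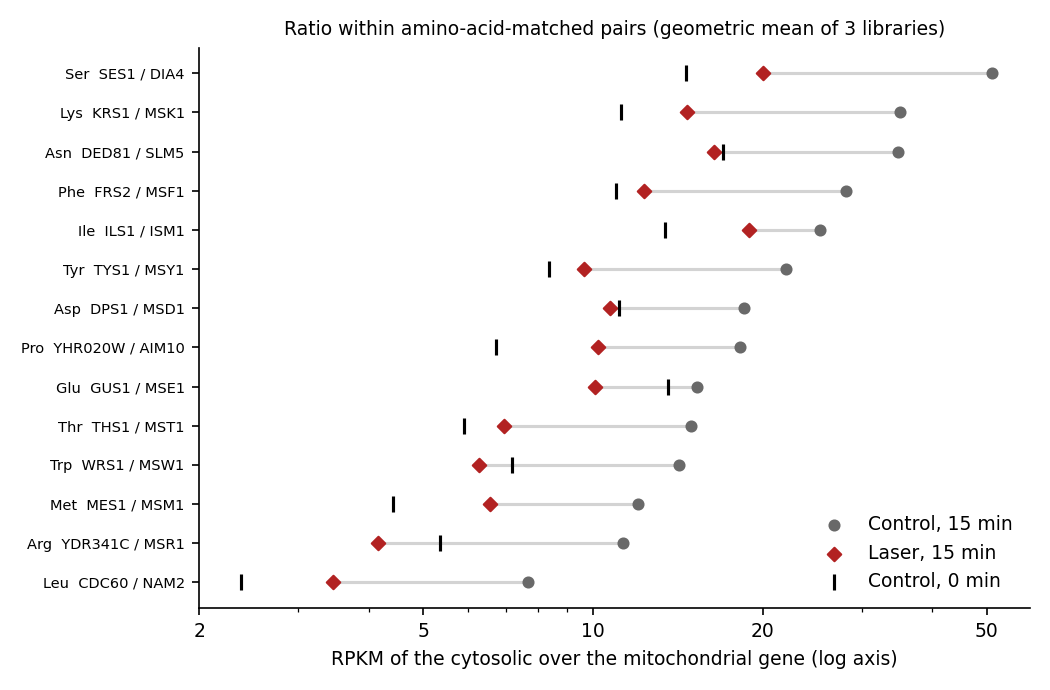
Ratio of cytosolic to mitochondrial RPKM (log x axis, geometric mean of 3 libraries) for 14 amino acids (y axis) in control cells at 0 min (ticks) and in control (circles) and laser cells (diamonds) at 15 min. The laser ratio lies below the control ratio at 15 min in all 14 pairs, as for *KRS1* over *MSK1* at 14.7 against 35.1.

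The 6 cytosolic genes that also supply the mitochondrion had negative medians, as the cytosolic set did. Their median laser effect was -0.18 at T15, from -0.31 to 0.06, and -0.20 at T30, from -0.36 to -0.18, and none was called at T15 or T30, nor had any an unadjusted p under 0.05. With the block *GRS1* was called lower at T15, as given above, and after rescaling 3 of the 6 were called lower at T15 and 3 at T30, against 13.2% and 8.12% of all genes. From T0 to T15 in control cells their median was 0.22. The counts do not separate the transcripts that start at different sites in these genes, so the form for the mitochondrion was not measured by itself.

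Of the genes that act beside the synthetases, few were called for a laser effect, and the counts over time are set beside the shares of all genes. Among 12 partners and sensors of charging, none was called at T15 (22.6% of all genes higher and 4.26% lower) or T30 (14.4% and 2.15%). Their median log2 fold change at T15 was 0.09 (0.29 for all genes). An unadjusted p under 0.05 for a higher value was reached by 2 at T15, and by 1887 of all 5887 genes. With the block *PET112* (0.68, adjusted p = 0.0113 by limma) and *HER2* (0.60, adjusted p = 0.0109) were called higher at T15, as were 41.2% of all genes. Both encode subunits of the mitochondrial amidotransferase that makes glutaminyl-tRNA. *DTD1* (-0.47, adjusted p = 0.0417 by limma), which removes D-amino acids from tRNA, was called lower at T30 with the block (5.91% of all genes). The lowest value at T15 was that of *GCN1* (-0.22), a protein that helps sense uncharged tRNA. Among 10 genes of tRNA maturation, *LHP1*, which binds the ends of new tRNA transcripts, was lower in laser cells at T15 (-0.50, adjusted p = 0.0433 by limma). The tRNA ligase gene *TRL1* (-0.38, adjusted p = 0.0443 by limma) was called lower at T15 only with the block (12.5% of all genes). In control cells 5 of the 12 partners were called at T30 against T0, 2 higher (8.15% of all genes) and 3 lower (34.3%). At T60 there were 7, 2 higher (6.92% of all genes) and 5 lower (37.3%). *PET112* fell by 1.34 at T30 (limma, adjusted p = 0.000873) and *HER2* by 0.73 (adjusted p = 0.0185), whereas *GCN1* rose by 0.74 (adjusted p = 0.00702). In laser cells 2 partners were called at T30, 1 higher (7.7% of all genes) and 1 lower (18.7%). At T60 there were 4 in laser cells, 1 higher (9.13% of all genes) and 3 lower (32%). Of the tRNA maturation genes 2 were called higher at T30 in control cells, and 2 higher and 2 lower at T60, beside the shares given for control cells. *LHP1* rose in both control (0.78) and laser cells (0.77) by T30.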

How the data were processed

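The deposited values were RPKM, 1 table for each of 4 time points. The authors made stranded poly(A) libraries, aligned paired reads to the S288C genome with SeqMan NGen and computed RPKM in ArrayStar. How strand and multiple matches were treated is not given in the sources used here. Deposited p-values, t scores and fold changes hold the authors' own comparisons and were not used. Depth was recovered from RPKM steps, with 88.9% to 93.9% of low values within 0.08 of a whole read, short of nearly all, so no count test was run. A gene without reads is listed at 0.021.

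For each time, log2(RPKM + 1) of laser and control libraries was fitted in limma 3.58.1 (R 4.3.3) with its trend option, over genes that reached 1 RPKM in 3 or more of 6 libraries. Changes over time came from 1 fit of 24 libraries. Fold changes are on the log2(RPKM + 1) scale, which understates low genes. P-values were Benjamini-Hochberg adjusted over all genes tested, and calls were made at 0.05. The fits were tested on simulated data. Replicate numbers were taken to pair the samples because each culture was divided, although the labels do not state the pairing. Same-numbered laser and control libraries correlated at 0.184, 0.289 and 0.408 at T15 (deviations from group means), and at 0.232, 0.0239 and 0.433 at T30. The values were 0.45, 0.0235 and 0.305 at T0 and 0.467, -0.0201 and 0.463 at T60. Differently numbered libraries of the same time ran from -0.505 to 0.251. Blocked values stand beside the named calls they change. Members, lists and tests were chosen with earlier results of these data known. All members could be named, with values per library for members past 2-fold, the 3 most positive and most negative of each set at T15 and T30, *GRS1*, *GRS2* and *ARC1*. Further values were added after they were seen. Partner genes were named where called or else as the extremes. Alternatives were the block, a pseudocount of 0.1, no filter, median-ratio rescaling and leaving out each library. Sequences and positions are from RefSeq, build R64.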

Additional observations from a re-analysis of the deposited data

How the results depend on the processing

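The number of members called was 8 at T15 and 2 at T30. It was 23 and 9 with the replicate block and 22 and 18 after rescaling. It ran from 1 to 13 and from 0 to 11 when 1 library was left out. Shares of all genes are not given for fits with a library or replicate left out. All 8 genes called at T15 were kept with the block and 6 of them after rescaling. A pseudocount of 0.1 changed no count, and without the filter on low values 7 members were called at T15. In control cells at T15, T30 and T60 against T0 the counts of 11, 17 and 14 became 21, 28 and 22 with the block and 27, 30 and 28 after rescaling, and ran from 0 to 11, from 2 to 21 and from 2 to 17 with a replicate left out. In laser cells 0, 4 and 9 became 1, 7 and 17 with the block and 2, 16 and 25 after rescaling. At T30 and T60 these laser counts ran from 0 to 4 and from 2 to 11 with a replicate left out. After rescaling, 854, 1284 and 1284 of all 6146 genes were higher in control cells and 986, 1428 and 1399 lower. In laser cells 637, 977 and 1352 of all genes were then higher and 615, 1015 and 1424 lower. The change of the laser effect from T0 to T15 called 0 members, and 0 to 2 with a replicate left out. With the block it called 6, of which 5 were mitochondrial and higher and 1 cytosolic and lower. After rescaling it called 10, all of them cytosolic and lower (176 of 6146 genes were lower). The change from T30 to T60 called 1 after rescaling, a cytosolic gene that was higher (101 of 6146 genes). The distance between set medians at T30 was -0.88 and ran from -0.96 to -0.77. After rescaling the log2 fold change turned to -0.03 for *ISM1* and -0.27 for *GUS1* at T15, and to -0.10 for *ISM1*, -0.16 for *MSM1* and -0.06 for *ARC1* at T30. With a library left out the sign turned within the range from -0.14 to 0.02 for *ARC1* and from -0.08 to 0.18 for *GUS1* at T15, and from -0.06 to 0.34 for *ISM1*, from -0.20 to 0.36 for *MSM1* and from -0.37 to 0.00 for *KRS1* at T30. The block called no member at T0 or T60. Values of mitochondrial genes rest on as few as 20 reads, which limits the precision of single libraries.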

Other observations

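The letters TGTANATA after the stop codon were not peculiar to the synthetase genes. Among genes outside the family, 702 tested at T15 held them and had a median log2 fold change of laser over control of 0.44, against 0.28 in 4762 genes without them. At T30 the medians were 0.38 in 701 genes and 0.13 in 4756 genes, and at T0 they were 0.01 and 0.00. From T0 to T15 in control cells they were -0.49 and -0.31, and in laser cells -0.04 and -0.03. These medians describe the same libraries as the synthetase values, were looked at after the synthetase values were known and were not tested.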
